A study of Rattus norvegicus with 46 samples.

Results

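Livers of DIO (diet-induced obese) rats given CagriSema were compared with livers of DIO rats given vehicle. CagriSema is a combination of cagrilintide, which mimics amylin and acts for longer, and semaglutide, an agonist of the receptor for glucagon-like peptide 1. All 7 liver libraries labelled CagriSema and all 8 labelled vehicle were used, 15 of the 46 libraries of the series, and every gene that passed a filter on low counts was tested, 12702 of 32552. All groups carry the genotype label WT (wild type), and livers were collected 20 days into treatment. Another liver group of 8 libraries came from WT rats whose food was restricted to match body weight. It entered the same fit, where 892 genes (7.02%) passed against vehicle. Because it is compared with the same 8 vehicle libraries, agreement between the comparisons is no independent support. Whether libraries and rats correspond 1 to 1 is not stated, and the spread behind each p-value may in part be technical.

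Amylin and glucagon-like peptide 1 act mainly on receptors in the brain and pancreas, and hepatocytes are not known as a main site of either receptor. The liver answers to feeding state through insulin, glucagon and glucocorticoids, which set glucose output, lipid synthesis and the breakdown of amino acids. It also makes most plasma proteins, bile acids and taurine, the amino sulfonic acid that is joined to bile acids.

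Liver libraries held 9888858 to 15948219 counts. Levels are given as CPM, the share of a library's counts scaled by TMM, a method that evens out library composition. Where a gene has no count, up to 3 counts remain possible at this depth. Alb, which encodes albumin and is the defining hepatocyte transcript, stood at 54811 CPM or more in every vehicle and CagriSema library. Calcr, the core of the amylin receptor, had no count in any of the 23 liver libraries, Glp1r had 1 count in 1 library, and Ramp3, an amylin receptor partner, had 19 counts over 10 libraries. Other receptor genes were measured: Ramp1 had medians of 3.45 CPM with vehicle and 3.70 CPM with CagriSema, Ramp2 had 2.39 and 3.06 CPM, and the glucagon receptor gene Gcgr had 190 and 178 CPM, and none of the 3 passed the test (adjusted p = 0.891, 0.903 and 0.512). Vehicle libraries 4 and 6 stood apart. Genes of ribosomal proteins took 1.87% of the counts of library 4, against 0.657% to 0.950% in the other 22, and mitochondrially encoded genes took 9.29% of library 6, against 4.09% to 5.81%. The comparison was therefore repeated without both.

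In the quasi-likelihood test of edgeR, with p-values adjusted by Benjamini-Hochberg, 45 of 12702 genes (0.354%) passed an adjusted p of 0.05. Of these, 14 (0.11% of genes tested) rose and 31 (0.244%) fell with CagriSema, and 12 changed by more than 2-fold. Adjusted p-values of the 45 ran from 0.00156 to 0.0492, so that most lay close to the threshold. Absolute log2 fold changes of the 45 ran from 0.36 to 2.20. At an unadjusted p under 0.05 stood 2262 genes (17.8%). Fold changes were positive for 47.3% of all genes tested, and for 49.9% without vehicle libraries 4 and 6. In 12 of the 45 genes the vehicle and CagriSema ranges did not overlap, beside 32 such genes (0.252%) among all tested. The 45 were chosen by the difference between these same libraries, so a higher share among them was fixed in advance. Ranges that do not overlap describe the values and add no support to a call. Of the 14 genes that rose, 8 had a vehicle mean under 5 CPM, against 1 of the 31 that fell. The vehicle level enters both the call and this count, and the share over all genes tested was not counted. Against vehicle, 25 of the 45 also passed with weight matching, beside 892 of all genes tested (7.02%). The direction was the same with weight matching for 43 of the 45. The 45 were chosen by their distance from these same vehicle libraries, which by itself raises both counts. Neither count therefore measures a shared response. Between CagriSema and weight matching 3 of the 45 passed, beside 68 of all genes tested (0.535%). That comparison shares the CagriSema libraries by which the 45 were chosen. Without vehicle libraries 4 and 6, 18 of 12762 genes passed (0.141%), 6 higher (0.047%) and 12 lower (0.094%), and 11 of these were among the 45. The count also moved with single libraries, from 3 without vehicle library 8 to 130 without vehicle library 7. Leaving out 1 weight-matched library, which is not part of this comparison, gave 4 to 42 genes.

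**Figure D1:**
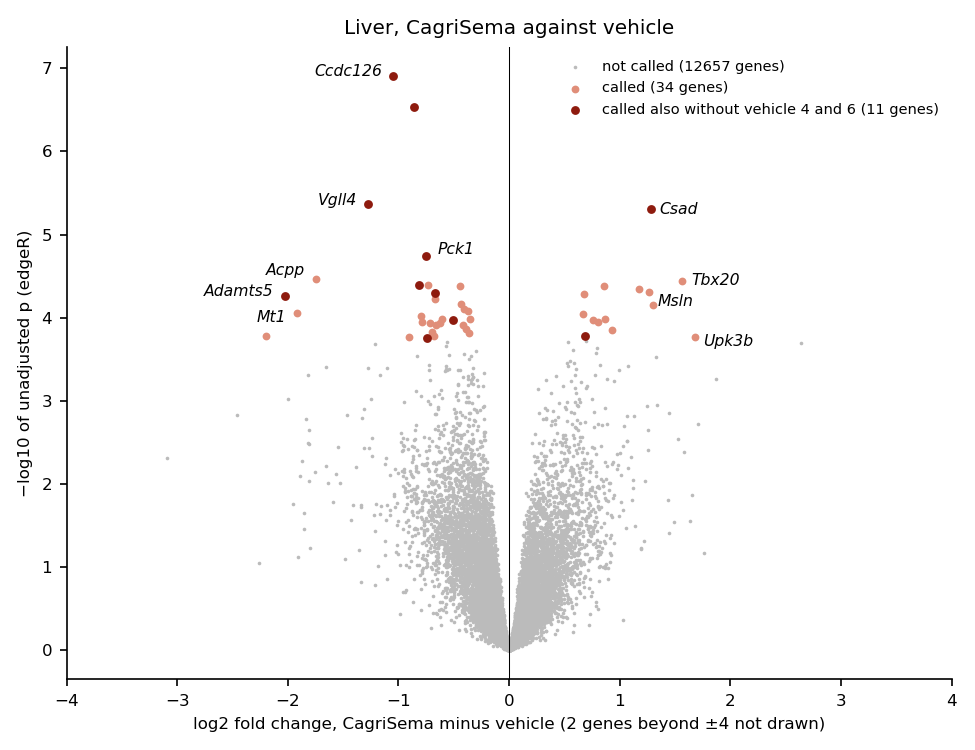
Log2 fold change (x axis) against −log10 of the unadjusted p (y axis) for the genes tested, 1 point a gene. The 11 dark points also passed without vehicle libraries 4 and 6, among them Ccdc126, Vgll4, Csad and Pck1.

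**Figure D2:**
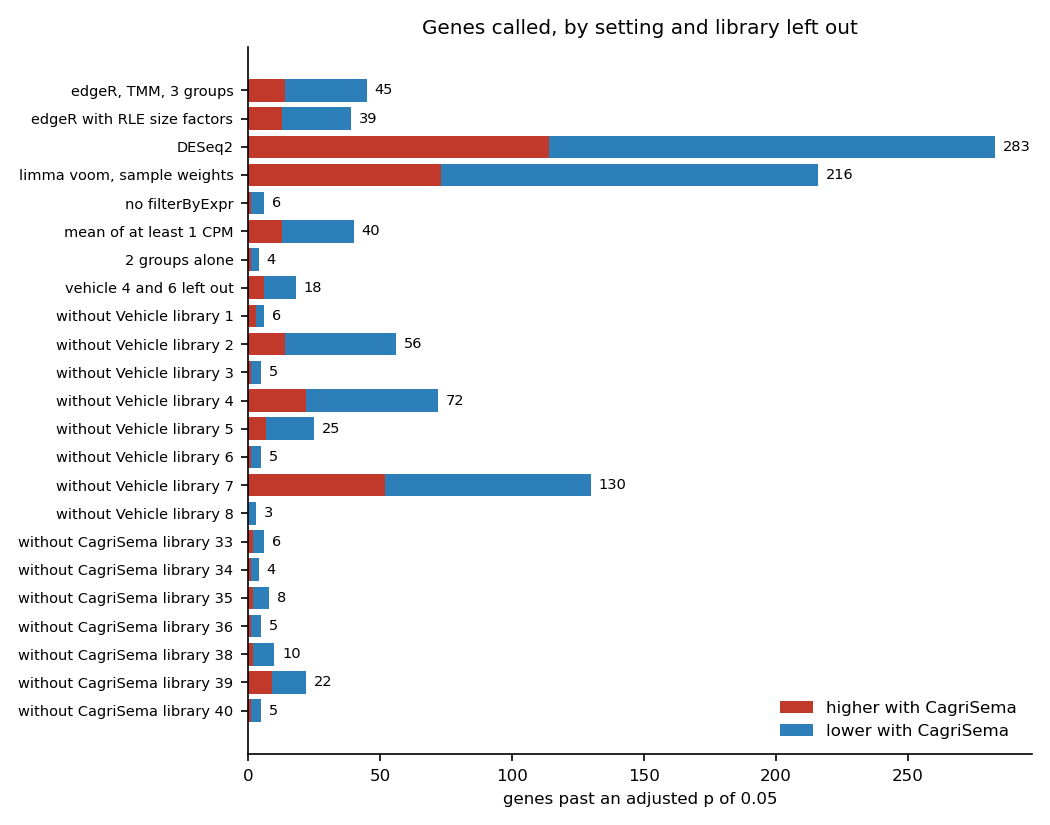
Number of genes past an adjusted p of 0.05 (x axis, from 0) for CagriSema against vehicle. The y axis gives the settings and the vehicle or CagriSema library left out. The bars run from 3 genes without vehicle library 8 to 283 genes with DESeq2.

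A few genes passed whichever library was left out. Ccdc126 and Vgll4 passed in all 15 fits that left out 1 of the 15 libraries, Csad in 14 of them and Pck1 in 9, while 40 of the 45 passed in fewer than 8. In the fit of the vehicle and CagriSema groups alone, Csad and Pck1 did not pass (adjusted p = 0.126 and 0.115). All 45 kept their sign in every fit that tested them. Fits that left out a weight-matched library were not part of this check.

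Csad (ENSRNOG00000011573) encodes cysteine sulfinic acid decarboxylase, which makes hypotaurine, the precursor of taurine. It stood at 69.4 to 262 CPM in vehicle livers, with a median of 106 CPM, and at 222 to 433 CPM with CagriSema, with a median of 286 CPM. The groups overlapped through vehicle library 4 alone, whose 262 CPM lay above the lowest CagriSema values, and the other vehicle libraries reached no more than 155 CPM. Csad rose by 1.28 ± 0.22 (log2 fold change ± SE, adjusted p = 0.0157), and by 1.63 without vehicle libraries 4 and 6 (adjusted p = 6.93e-05). Weight-matched livers stood at 185 to 265 CPM, higher than vehicle by 0.77 (adjusted p = 0.0303). The difference between CagriSema and weight matching was 0.51 (adjusted p = 0.357). Of the 20 tested genes for sulfur amino acids, taurine and glutathione, Csad was the 1 that rose, none fell and 19 did not pass. Their median log2 fold change was -0.10, beside -0.02 over all genes tested. Suox, the sulfite oxidase gene at the other end of cysteine breakdown, stood at -0.33 (adjusted p = 0.126).

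Ccdc126 (ENSRNOG00000009322), a gene of a coiled-coil protein, stood at 12.8 to 21.8 CPM with vehicle (median 16.6) and at 6.65 to 9.53 CPM with CagriSema (median 7.45). Every CagriSema library lay below every vehicle library. On the log2 scale Ccdc126 fell by 1.05 (SE 0.14, adjusted p = 0.00156), the smallest adjusted p of the comparison. Weight-matched livers stood at 6.05 to 13.0 CPM, and their change against vehicle was -0.72 (adjusted p = 0.00208). Vgll4 (ENSRNOG00000007822) encodes a cofactor that competes for TEAD transcription factors, the DNA-binding partners of the Hippo pathway. It stood at 9.60 to 23.4 CPM with vehicle (median 15.4) and at 4.94 to 9.27 CPM with CagriSema (median 6.01), again with no overlap. Vgll4 fell by 1.27 (SE 0.21, adjusted p = 0.0157), and it was also lower than in weight-matched livers (-0.98, adjusted p = 0.0325), which stood at 6.90 to 20.0 CPM.

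None of the 18 tested markers of Kupffer cells, the macrophages of the liver, passed the test, and their median was 0.06. Their summed level was 159 to 995 CPM in vehicle libraries and 556 to 753 CPM with CagriSema. In bulk tissue, fewer cells of a type and less RNA per cell cannot be told apart.

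**Figure D3:**
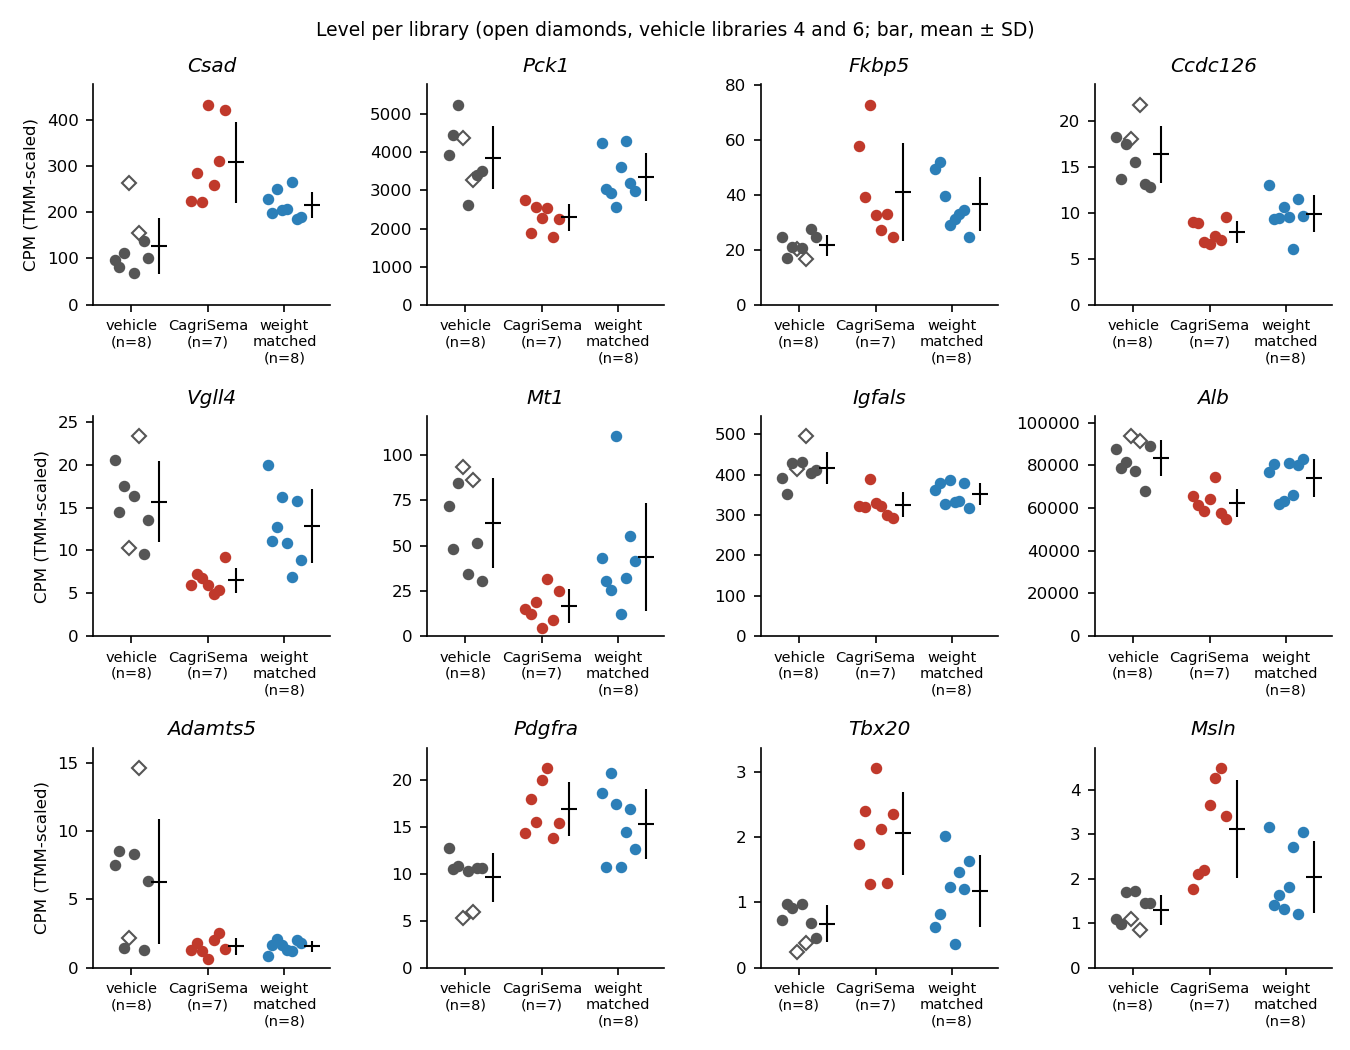
Level of 12 genes per library in TMM-scaled CPM (y axes, from 0), with vehicle (8), CagriSema (7) and weight-matched (8) libraries on the x axes and the mean ± SD beside each group. Open diamonds mark vehicle libraries 4 and 6; Ccdc126, Vgll4, Pdgfra, Tbx20 and Msln show no overlap between vehicle and CagriSema.

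Among genes of glucose output, the change was that of Pck1 (ENSRNOG00000028616), which encodes the cytosolic phosphoenolpyruvate carboxykinase, a controlling step of gluconeogenesis. Pck1 is a textbook target of glucagon and cAMP through a cAMP response element close to its start. That element is shown because it is the best known control site of a gene that changed. Upstream bases come from RefSeq, build GRCr8, at chr3:182348322-182348571 on the plus strand and end just before the start. Capitals mark matches to TTACGTCA or TGACG.

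Pck1: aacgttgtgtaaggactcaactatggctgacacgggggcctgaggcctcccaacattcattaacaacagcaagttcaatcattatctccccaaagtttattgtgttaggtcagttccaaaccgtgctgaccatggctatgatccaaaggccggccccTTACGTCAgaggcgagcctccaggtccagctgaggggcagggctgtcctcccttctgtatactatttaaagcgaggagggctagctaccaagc

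The match TTACGTCA begins 93 bases before the start, and the half-site TGACG lies inside it on the opposite strand. Searched on both strands, TTACGTCA was found in 0.750% of 33469 rat promoter windows of the same length, the full form TGACGTCA in 1.59% and TGACG in 18.2%. A match is a description of the letters and not of a bound site. Pck1 stood at 2608 to 5260 CPM with vehicle (median 3726) and at 1788 to 2758 CPM with CagriSema (median 2264). The groups overlapped at the lowest vehicle library. Pck1 fell by 0.75 (SE 0.14, adjusted p = 0.0433), and by the same amount without vehicle libraries 4 and 6 (adjusted p = 0.0421). Weight-matched livers had a median of 3125 CPM, and the difference between CagriSema and weight matching was -0.55 (adjusted p = 0.0765).

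Of 18 tested genes of gluconeogenesis and glucose output, Pck1 was the 1 that fell, none rose and 17 did not pass, with a median of -0.04. G6pc, the glucose-6-phosphatase gene at the last step of glucose release, stood at 164 to 609 CPM with vehicle and 157 to 517 CPM with CagriSema, ranges that covered each other. Its log2 fold change was -0.24 ± 0.39 (adjusted p = 0.769). Fbp1, which encodes fructose bisphosphatase, stood at -0.42 (adjusted p = 0.155). Crem, which encodes a modulator of transcription driven by cAMP, fell by 0.66 (SE 0.14, adjusted p = 0.0449), from a median of 97.1 CPM to 62.6 CPM, with overlapping groups. Of 17 tested immediate-early genes none passed, 15 had negative fold changes, and the median was -0.36, or -0.25 without vehicle libraries 4 and 6.

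The metallothionein gene Mt1 (ENSRNOG00000038047), whose product binds zinc and copper, had the second largest fall among genes with a proper symbol. Metallothionein genes respond to metals through short metal response elements and also to glucocorticoids. Upstream bases of Mt1 and its neighbour Mt2A are shown because both genes had large negative fold changes. They come from RefSeq, build GRCr8, both on the minus strand, at chr19:10832976-10833225 for Mt1 and chr19:10838709-10838958 for Mt2A. Capitals mark matches on either strand to TGCACNC or TGCGCNC, letters of the metal response element, and 1 match to TGACG in Mt1.

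Mt1: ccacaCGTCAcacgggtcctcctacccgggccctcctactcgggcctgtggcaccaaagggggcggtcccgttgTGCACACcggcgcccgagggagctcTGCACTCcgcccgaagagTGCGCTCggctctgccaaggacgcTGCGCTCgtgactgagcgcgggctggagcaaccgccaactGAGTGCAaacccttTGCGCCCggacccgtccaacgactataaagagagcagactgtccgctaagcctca

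Mt2A: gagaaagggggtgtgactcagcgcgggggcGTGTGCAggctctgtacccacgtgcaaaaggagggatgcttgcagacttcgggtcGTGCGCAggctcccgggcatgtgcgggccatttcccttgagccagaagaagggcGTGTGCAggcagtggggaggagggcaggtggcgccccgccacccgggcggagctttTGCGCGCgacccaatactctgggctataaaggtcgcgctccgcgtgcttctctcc

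Mt1 held 3 matches to TGCACNC and 3 to TGCGCNC, and Mt2A held 2 of each. Among the 33469 promoter windows, 10.3% held TGCACNC and 11.8% held TGCGCNC. Mt1 stood at 30.4 to 93.6 CPM with vehicle (median 61.6) and at 4.41 to 31.8 CPM with CagriSema (median 15.1). Only the highest CagriSema library reached the vehicle range. Mt1 fell by 1.92 (SE 0.41, adjusted p = 0.0449), and stood at -1.70 without vehicle libraries 4 and 6, where it did not pass (adjusted p = 0.103). Mt2A, named after its values were seen, stood at 20.6 to 58.8 CPM with vehicle and at 2.67 to 21.7 CPM with CagriSema, a log2 fold change of -1.82 ± 0.45 that missed the threshold (adjusted p = 0.0708). Weight-matched livers overlapped both groups, with Mt1 at 12.1 to 111 CPM. The 2 genes are similar in sequence, and reads may have been shared between them.

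Fkbp5 encodes a chaperone of the glucocorticoid receptor and is a standard glucocorticoid-induced gene. It stood at 16.5 to 27.5 CPM with vehicle (median 20.8) and at 24.7 to 72.9 CPM with CagriSema (median 33.2), with a narrow overlap. Fkbp5 rose by 0.93 (SE 0.21, adjusted p = 0.0484), and stood at 0.87 without vehicle libraries 4 and 6 (adjusted p = 0.107). It passed in 1 of the 15 fits that left out 1 library. Weight-matched livers stood at 24.7 to 52.1 CPM for Fkbp5. Zbtb16, another glucocorticoid-induced gene that was named after its values were seen, stood at 1.46 to 14.1 CPM with vehicle and at 9.49 to 96.7 CPM with CagriSema. Its log2 fold change of 2.63 ± 0.60 missed the threshold (adjusted p = 0.0519). Of the 19 tested genes of metallothioneins and glucocorticoid induction, 1 rose, 1 fell and 17 did not pass, with a median of -0.24. Klf9, which glucocorticoids also induce, stood on the other side at -0.50 (adjusted p = 0.122).

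Among transcripts of secreted hepatocyte proteins, Alb and Igfals fell. Alb (ENSRNOG00000002911) stood at 68089 to 93776 CPM with vehicle and at 54811 to 74395 CPM with CagriSema, with overlapping ranges. Alb fell by 0.42 (SE 0.09, adjusted p = 0.0449), and stood at -0.36 without vehicle libraries 4 and 6 (adjusted p = 0.0790). Of 17 tested hepatocyte markers, Alb was the 1 that fell and 16 did not pass. The marker list had a median of -0.35 over all libraries and -0.11 without vehicle libraries 4 and 6, and its summed level was 107276 to 170508 CPM with vehicle and 89547 to 116369 CPM with CagriSema. Fga, the fibrinogen alpha chain gene, stood at -0.31 (adjusted p = 0.109), and none of 32 acute-phase, complement and coagulation genes passed (median -0.14).

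Igfals (ENSRNOG00000015061) encodes the acid-labile subunit, which holds insulin-like growth factors in a long-lived plasma complex and is induced by growth hormone. It stood at 352 to 496 CPM with vehicle (median 413) and at 292 to 389 CPM with CagriSema (median 323). The ranges overlapped at the highest CagriSema library. Igfals fell by 0.36 (SE 0.08, adjusted p = 0.0449), the smallest absolute change among the 45, and stood at -0.31 without vehicle libraries 4 and 6 (adjusted p = 0.0590). Of 18 tested genes of the growth hormone and IGF axis 1 fell and 17 did not pass (median -0.16). Igf1 itself stood at 618 to 2014 CPM with vehicle and at 523 to 695 CPM with CagriSema, and its log2 fold change of -0.54 (adjusted p = 0.177) was -0.15 without vehicle libraries 4 and 6. Socs2, a feedback inhibitor of growth hormone signalling, stood at 7.29 to 90.3 CPM with vehicle and at 5.93 to 35.6 CPM with CagriSema, and did not pass (-1.65 ± 0.55, adjusted p = 0.156).

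Lipid genes gave few calls against vehicle. None of 18 tested lipogenesis genes passed. Their median was -0.19 with all libraries and 0.13 without vehicle libraries 4 and 6, so its sign depended on those libraries. Scd, the desaturase gene that makes monounsaturated fatty acids, ranged from 646 to 6995 CPM with vehicle and from 243 to 2460 CPM with CagriSema (-1.81 ± 0.56, adjusted p = 0.136). CagriSema library 39 alone held the highest treated value, the other 6 reached 757 CPM at most, and without it Scd passed at -2.56 (adjusted p = 0.0436). Without vehicle libraries 4 and 6, Scd stood at -1.22 (adjusted p = 0.367). Acaca, the acetyl-CoA carboxylase gene at the first committed step of fatty acid synthesis, stood on the other side at 0.80 ± 0.29 (adjusted p = 0.179).

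None of 25 tested genes of cholesterol synthesis passed, 19 had positive fold changes, and the median was 0.16, or 0.39 without vehicle libraries 4 and 6. Hsd17b7, a ketosteroid reductase gene, stood at 24.1 ± 5.40 CPM with vehicle (SD, n = 8) and at 36.8 ± 12.5 CPM with CagriSema (n = 7). The groups overlapped in part, and the log2 fold change of 0.61 ± 0.17 did not pass (adjusted p = 0.109). Against weight-matched livers, where 68 genes passed (0.535%), 3 cholesterol synthesis genes and 2 lipogenesis genes were higher with CagriSema. Acly, the ATP citrate lyase gene that supplies acetyl-CoA to both pathways and was named after its values were seen, was among the 2. It differed from weight matching by 1.41 (adjusted p = 0.0273) and stood at 0.74 against vehicle (adjusted p = 0.218).

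Of 31 tested genes of fatty acid oxidation and ketogenesis none passed, 28 had negative fold changes, and the median was -0.21, or -0.18 without vehicle libraries 4 and 6. Slc25a20, the carnitine carrier gene of mitochondria, stood at -0.37 (adjusted p = 0.0910), and Etfdh, which passes electrons from fatty acid oxidation to the respiratory chain, at -0.32 (adjusted p = 0.0982). Of 30 genes of apolipoproteins and lipoprotein assembly none passed (median -0.28). Lipc, the hepatic lipase gene, stood at 344 to 556 CPM with vehicle and at 283 to 405 CPM with CagriSema, close to the threshold at -0.41 (adjusted p = 0.0615).

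Amino acid and bile acid genes each gave 1 call. Kynu encodes kynureninase, an enzyme of tryptophan breakdown. It stood at 59.0 to 149 CPM with vehicle (median 101), 48.8 to 76.4 CPM with CagriSema and 31.6 to 48.3 CPM with weight matching. Kynu fell by 0.72 against vehicle (SE 0.16, adjusted p = 0.0449) and stood at -0.55 without vehicle libraries 4 and 6 (adjusted p = 0.0902). The other 36 of 37 genes of amino acid breakdown and the urea cycle did not pass, 31 of the 37 had negative fold changes, and the median was -0.24. Sds, the serine dehydratase gene, had medians of 841 CPM with vehicle and 349 CPM with CagriSema (-1.65 ± 0.40, adjusted p = 0.0671).

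Amacr encodes a racemase that acts on bile acid intermediates and branched fatty acids. It stood at 328 to 627 CPM with vehicle and at 179 to 346 CPM with CagriSema, with a narrow overlap, and fell by 0.70 (SE 0.16, adjusted p = 0.0492). It was the 1 of 21 tested bile acid genes that passed. Cyp7a1, whose product sets the pace of bile acid synthesis, stood at 46.3 to 306 CPM with vehicle (median 67.5) and at 115 to 267 CPM with CagriSema (median 173). Its log2 fold change of 0.86 ± 0.33 did not pass (adjusted p = 0.199). The overlap rested on vehicle library 7, at 306 CPM, while the other vehicle libraries reached no more than 107 CPM. With library 7 left out, Cyp7a1 passed at 1.37 (adjusted p = 0.00916), the 1 of 15 such fits in which it passed. Without vehicle libraries 4 and 6 it stood at 0.65 (adjusted p = 0.446). Weight-matched livers stood at 128 to 346 CPM. Gch1, which makes the cofactor tetrahydrobiopterin used in phenylalanine breakdown, fell by 0.39 (SE 0.09, adjusted p = 0.0479).

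Genes of the liver surface lining and of mesenchymal cells were among those that rose. Tbx20 (ENSRNOG00000016181) is a transcription factor gene on the list of mesothelial markers, the genes of the cells that cover the liver capsule. It stood at 0.243 to 0.979 CPM with vehicle (median 0.703) and at 1.28 to 3.07 CPM with CagriSema (median 2.13), with no overlap. Tbx20 rose by 1.56 (SE 0.31, adjusted p = 0.0433). Msln, the mesothelin gene, stood at 0.837 to 1.71 CPM with vehicle and at 1.77 to 4.49 CPM with CagriSema, also without overlap, and rose by 1.26 (SE 0.25, adjusted p = 0.0433). Upk3b, a uroplakin gene of mesothelium, had no count in vehicle library 4 and at most 0.691 CPM in the others. It stood at 0.610 to 2.17 CPM with CagriSema and rose by 1.68 (SE 0.38, adjusted p = 0.0492). Upk3b passed the filter on low counts only through CagriSema and weight-matched libraries. It was too low to test with vehicle and CagriSema alone or with a mean of at least 1 CPM, so its call is no independent support for the other markers.

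Tbx20, Msln and Upk3b were among 5 mesothelial markers tested. The other 2 did not pass: Gpm6a stood at 17.0 ± 9.46 CPM with vehicle (SD, n = 8) and 16.5 ± 5.26 CPM with CagriSema (n = 7), and Igfbp6 at 0.750 ± 0.668 and 0.683 ± 0.312 CPM. The rest were too low to test. Wt1 had 32 counts over the 8 vehicle libraries and 55 over the 7 CagriSema libraries, Lrrn4 had 25 and 62, Upk1b had 22 and 54, and Bnc1 had 2 and 10, while Calb2 had none in liver. The summed level of the list, most of it Gpm6a, was 4.22 to 36.5 CPM with vehicle and 17.999 to 33.8 CPM with CagriSema. Without vehicle libraries 4 and 6, Tbx20 stood at 1.36 (adjusted p = 0.0590), Msln at 1.15 (adjusted p = 0.0626) and Upk3b at 1.47 (adjusted p = 0.0790). Weight-matched livers stood at 0.362 to 2.02 CPM for Tbx20, 1.21 to 3.15 CPM for Msln and 0.403 to 1.24 CPM for Upk3b. No mesothelial marker passed between CagriSema and weight matching. How much surface lining each piece of liver held was not tested.

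A receptor and its ligand moved in opposite directions. Pdgfra encodes the alpha receptor for platelet-derived growth factor and marks hepatic stellate cells and fibroblasts. It stood at 5.35 to 12.7 CPM with vehicle (median 10.6) and at 13.9 to 21.4 CPM with CagriSema (median 15.5), with no overlap, and rose by 0.81 (SE 0.17, adjusted p = 0.0449). Pdgfa, the gene of its ligand, stood at 5.84 to 8.63 CPM with vehicle and at 3.45 to 6.90 CPM with CagriSema and fell by 0.68 (SE 0.15, adjusted p = 0.0492). The 2 lowest Pdgfra values of the vehicle group were those of libraries 4 and 6, and without them Pdgfra stood at 0.63 (adjusted p = 0.0590) and Pdgfa at -0.58 (adjusted p = 0.0936). Weight-matched livers stood at 10.7 to 20.8 CPM for Pdgfra and 3.21 to 5.65 CPM for Pdgfa, so the split was not particular to CagriSema.

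The other 15 of 16 stellate cell and fibroblast markers did not pass, and the list had a median of 0.36 (0.32 without vehicle libraries 4 and 6). Its summed level was 697 to 1226 CPM with vehicle and 824 to 1176 CPM with CagriSema. Of 34 extracellular matrix and fibrosis genes 30 had positive fold changes (median 0.38), or 25 without vehicle libraries 4 and 6 (median 0.26). The 1 gene of this list that passed was lower. That gene was Adamts5, which encodes a protease that cleaves the proteoglycan aggrecan. It stood at 1.26 to 14.7 CPM with vehicle and 0.639 to 2.54 CPM with CagriSema. The vehicle libraries were split, with 3 of them inside the CagriSema range and the others well above it. Adamts5 fell by 2.03 (SE 0.41, adjusted p = 0.0434), and weight-matched livers stood at 0.882 to 2.09 CPM. None of 18 endothelial markers passed (median 0.24).

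The remaining genes of the 45 fell into several known roles. Among signalling and transcription genes, Tcf7l2, the Wnt pathway transcription factor gene, fell by 0.62 (adjusted p = 0.0449). Apc2, a relative of the Wnt pathway scaffold Apc, rose by 1.17 (adjusted p = 0.0433) from a median of 0.770 CPM to 1.97 CPM with no overlap. The fibroblast growth factor receptor gene Fgfr2 fell by 0.67 (adjusted p = 0.0448), and Gucy1a3, a subunit gene of the nitric oxide receptor guanylate cyclase, rose by 0.67 (adjusted p = 0.0449). Both chromatin genes among them fell, Hdac2, a histone deacetylase, by 0.37 and Ing2, which binds methylated histone H3, by 0.41 (adjusted p = 0.0449 for each).

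Some of the genes that fell encode mitochondrial proteins, and the share of such genes among all tested was not counted. Ppif, which encodes cyclophilin D of the permeability transition pore, stood at 74.8 to 105 CPM with vehicle and at 58.3 to 74.5 CPM with CagriSema, without overlap, and fell by 0.44 (SE 0.09, adjusted p = 0.0433). With weight matching Ppif fell by 0.51 against vehicle (adjusted p = 0.00122). Slc8b1, the mitochondrial sodium and calcium exchanger gene, fell by 0.51 (adjusted p = 0.0449). The mitochondrial ribosomal protein gene mrpl9 fell by 0.43 (adjusted p = 0.0449), and it was lower than in weight-matched livers as well (-0.50, adjusted p = 0.0123). Outside this group, Cryl1 encodes a dehydrogenase of the glucuronate pathway. It stood at 12.9 to 22.5 CPM with vehicle, 6.65 to 12.8 CPM with CagriSema and 9.68 to 23.1 CPM with weight matching. It fell against vehicle by 0.80 (SE 0.17, adjusted p = 0.0449) and differed from weight matching by -0.80 (adjusted p = 0.0262).

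Other genes that rose were Zfp39, a zinc finger gene (1.30, adjusted p = 0.0449), Pram1 (0.87, adjusted p = 0.0449), Hecw2, a ubiquitin ligase gene (0.85, adjusted p = 0.0433), the adhesion receptor gene Adgrg6 (0.76, adjusted p = 0.0449) and Cyp4b1, a fatty acid and xenobiotic hydroxylase gene (0.68, adjusted p = 0.0433). Zfp39 and Hecw2 had ranges that did not overlap between vehicle and CagriSema. Zfp39 passed the filter on low counts only through CagriSema and weight-matched libraries, with at most 0.519 CPM with vehicle. Among those that fell, Acpp, an acid phosphatase gene, went from a median of 5.23 CPM to 1.76 CPM (-1.75 ± 0.34, adjusted p = 0.0433), and weight-matched livers had a median of 0.825 CPM. Tymp, the thymidine phosphorylase gene, fell by 0.73 and Smagp, a small membrane protein gene, by 0.67 (adjusted p = 0.0433 for each). With weight matching Tymp fell by 0.69 (adjusted p = 0.00429) and Smagp by 0.42 (adjusted p = 0.0482) against vehicle. Smaller or less certain falls were those of Lurap1l (-0.91, adjusted p = 0.0492), Rnf144b, a ubiquitin ligase gene (-0.61, adjusted p = 0.0449), and Zfand3, a zinc finger gene (-0.36, adjusted p = 0.0492). The 2 genes without a proper symbol, AABR07068044.2 and AC115255.1, stood at -2.20 (adjusted p = 0.0492) and -0.79 (adjusted p = 0.0449).

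**Figure D4:**
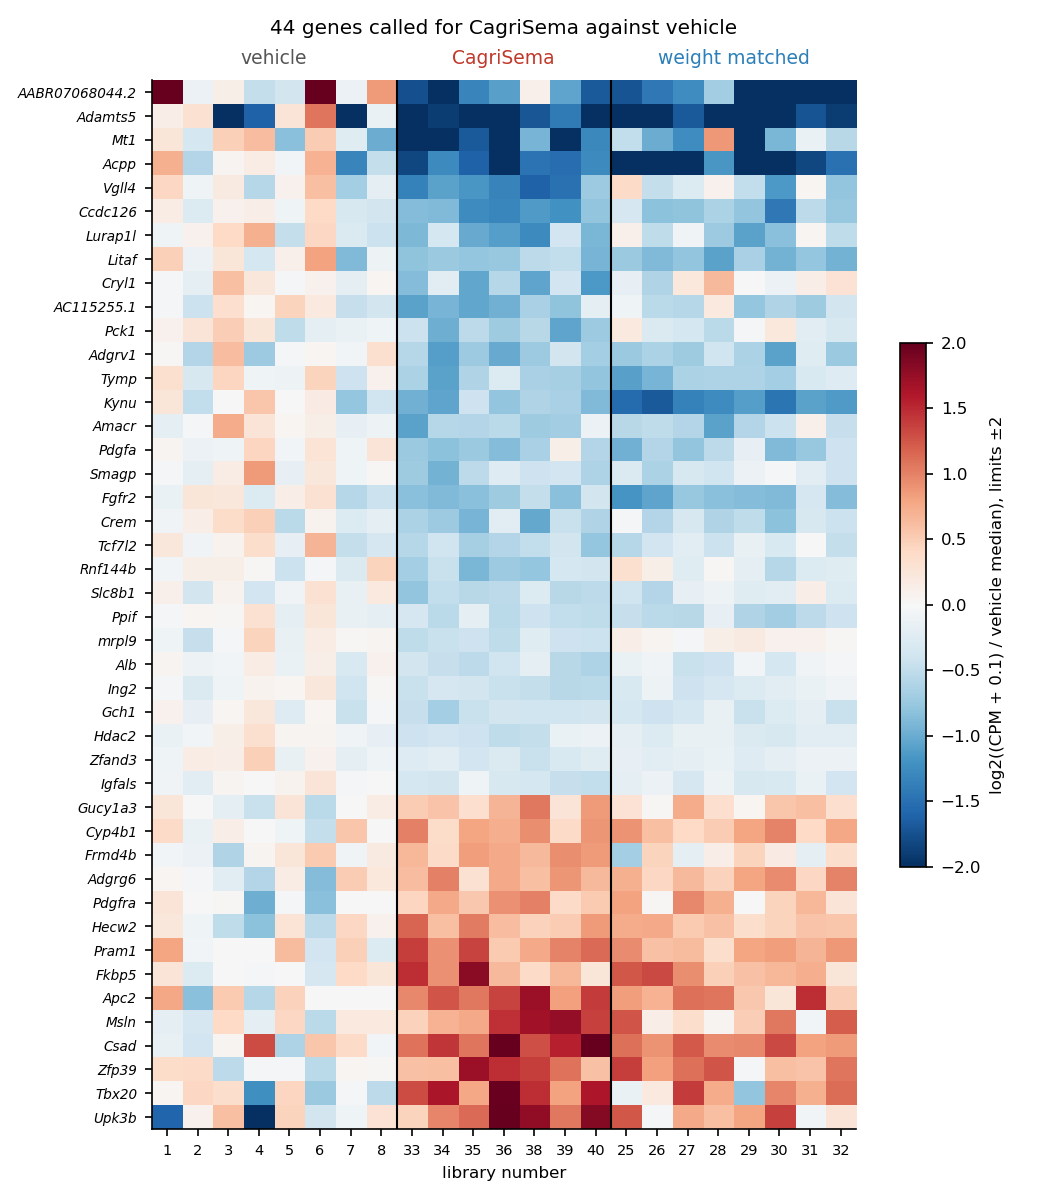
Level of 44 of the 45 genes (y axis) in each liver library (x axis, library numbers by group), as log2 of CPM plus 0.1 over the vehicle median, with colours limited at ±2. Every CagriSema library lies below every vehicle library for Ccdc126 and Vgll4; weight-matched libraries share the vehicle reference.

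Several broad lists moved with vehicle libraries 4 and 6. Of 39 tested nuclear-encoded genes of oxidative phosphorylation none passed and 38 had negative fold changes, with a median of -0.43. Without the 2 libraries the median was -0.02, with 25 negative. Cox6c, a subunit gene of cytochrome oxidase, stood at 361 CPM in the highest vehicle library, against 50.2 to 74.2 CPM with CagriSema. All 13 mitochondrially encoded genes had negative fold changes, with a median of -0.47 and of -0.20 without the 2 libraries. The median of 31 proteasome subunit genes went from -0.19 to 0.05. Fold changes of these lists against vehicle therefore differed in size or sign with 2 of 8 control libraries.

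**Figure D5:**
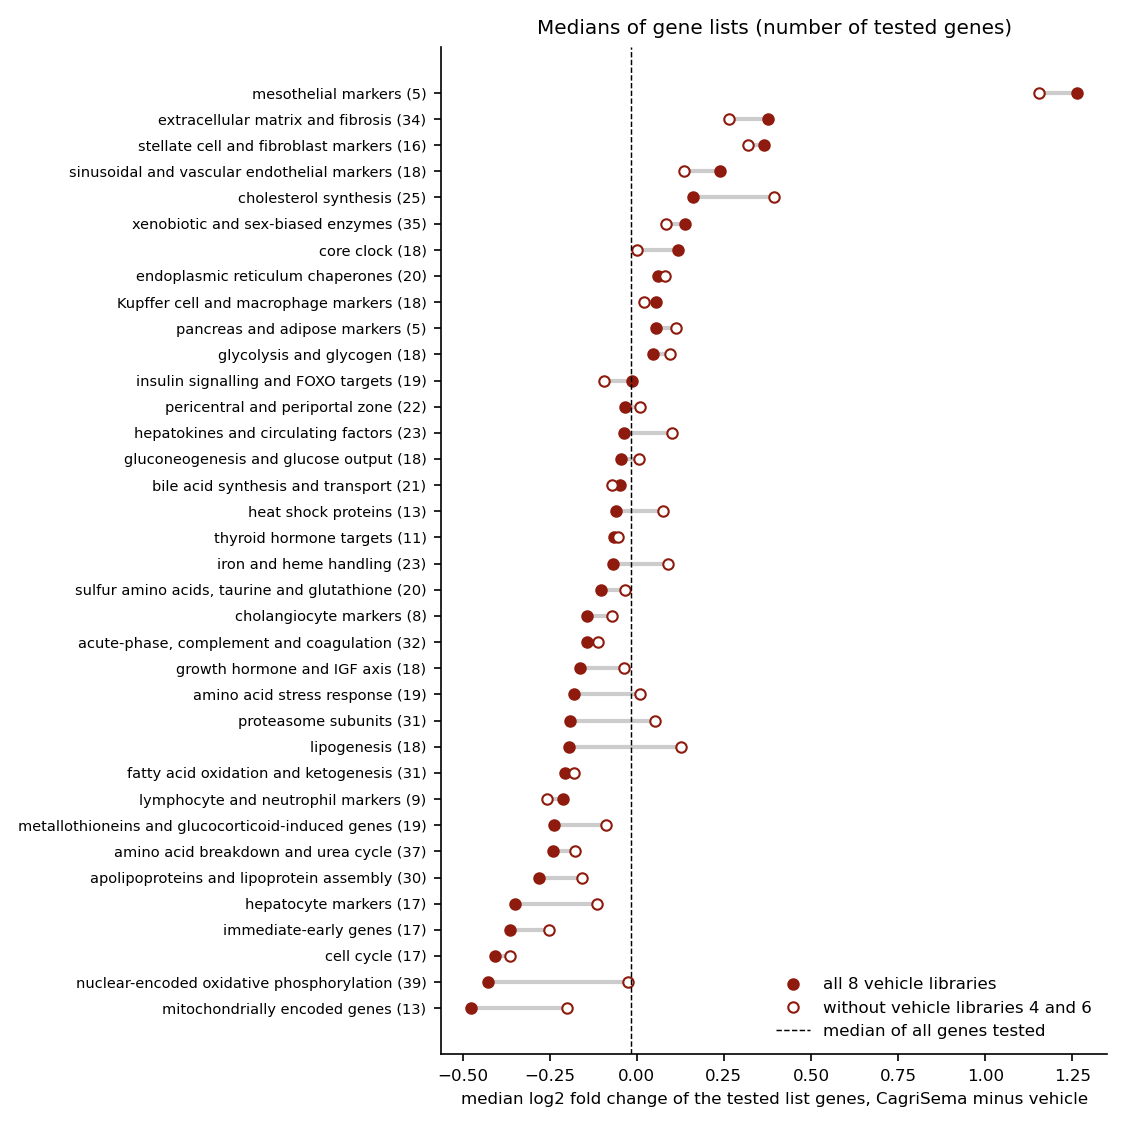
Median log2 fold change of the tested genes (x axis) in each list with at least 5 tested genes (y axis, number in brackets), with all vehicle libraries (filled) and without libraries 4 and 6 (open). Mesothelial markers lie at 1.26 and 1.15, while nuclear-encoded oxidative phosphorylation moves from -0.43 to -0.02 and lipogenesis from -0.19 to 0.13.

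Without vehicle libraries 4 and 6, the 11 genes that passed in both fits included Ccdc126, Vgll4, Csad, Pck1, Litaf, Smagp, Adamts5, Slc8b1, Frmd4b and Adgrv1. Frmd4b, a scaffold protein gene, had a median of 27.8 CPM with vehicle and 47.1 CPM with CagriSema and rose by 0.69 (SE 0.15, adjusted p = 0.0492), or by 0.79 without the 2 libraries (adjusted p = 0.0496), after which its groups no longer overlapped, as in 77 of all genes tested (0.606%). Weight-matched livers stood near vehicle, with a median of 30.9 CPM. Litaf, an endosomal membrane protein gene, fell by 0.81 (adjusted p = 0.0433). The adhesion receptor gene Adgrv1 fell by 0.74 (adjusted p = 0.0492).

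The repeat added 7 genes. Ahnak, which encodes a very large scaffold protein, stood at 7.41 CPM in vehicle library 4 and 16.4 CPM in library 6, at 22.3 to 26.2 CPM in the other vehicle libraries, and at 29.5 to 35.3 CPM with CagriSema. In that fit Ahnak rose by 0.42 (adjusted p = 0.00773), where the full fit gave 0.60 with an adjusted p of 0.0833. Ehd3, an endothelial marker that takes part in membrane recycling, rose by 0.48 in the repeat (adjusted p = 0.0421), and Afmid, the kynurenine formamidase gene of tryptophan breakdown, by 0.49 (adjusted p = 0.0496). Neurl2, a gene of ubiquitin ligase complexes, fell by 0.54 (adjusted p = 0.0178), and its full-fit difference from weight matching was -0.55 (adjusted p = 0.0189). Gprc5c, an orphan receptor gene, fell by 0.32 and Smc6, a chromosome maintenance gene, by 0.26 (adjusted p = 0.0496 for each), and the 7th, AABR07071765.1, rose by 0.57 (adjusted p = 0.0421).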

How the data were processed

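Bulk RNA was sequenced from liver and muscle, and only the 23 liver libraries were fitted. The deposited values are whole-number counts per gene from 1 table. An RNeasy Minikit served for extraction and a Twist UMI system, which tags single molecules, for library preparation, per the labels' protocols. The submitters' processing notes name fastp 0.23.1 and STAR 2.5.2b. Not given in the sources used here are the build, annotation, counting program and use of molecular identifiers. Matching of columns was by title, which left out 1 count column.

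In R 4.3.3, edgeR 4.0.16 fitted quasi-likelihood models (filterByExpr, TMM, robust) to the 3 liver groups, with Benjamini-Hochberg adjustment over all genes tested and a threshold of 0.05. No pair of libraries was near-identical (chi-square per degree of freedom at least 12.9 over 253 pairs). Alternatives were DESeq2 1.42.0, voom with sample quality weights in limma 3.58.1, RLE scaling, other filters (a mean of at least 1 CPM, or a total of at least 10 counts), the 2 groups alone, vehicle libraries 4 and 6 left out, and each library left out. The procedure was tested on simulated counts with known changes. That simulation held no library that stood apart as vehicle libraries 4 and 6 did, so it does not cover their influence. Floors of 3 counts cover counting error only.

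Named genes were up to 15 higher and 15 lower with the lowest p, up to 10 called without vehicle libraries 4 and 6, the 2 lowest-p members of each list with at least 5 tested genes, and 12 fixed genes of receptors and metabolism. The rest of the 45 and other genes said to be so were picked with their values in view. Members and lists (38, of which 36 had 5 tested genes) were chosen with earlier results of these data known. Of the list genes, 743 were matched by symbol and 9 through RefSeq, and 35 were not analysed here. Some genes are not reported here. Of the 45 genes, 35 had a promoter entry.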

Additional observations from a re-analysis of the deposited data

Results flagged for a closer look

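Single libraries far from the rest of their group were looked for in 48 genes, in vehicle and CagriSema separately, and 6 of 96 such checks found one, where chance alone gives about 1 in 20. Ahnak was low in vehicle library 4, at 7.41 CPM against 16.4 to 26.2 CPM in the other 7. Smagp was high in the same library, at 63.6 CPM against 31.02 to 41.2 CPM. Among CagriSema libraries, mrpl9 was high in library 38 (26.2 CPM against 21.7 to 23.3 CPM), Acpp was low in library 36 (0.320 CPM against 1.40 to 2.10 CPM), Gch1 was low in library 34 (72.7 CPM against 84.8 to 90.0 CPM) and Pdgfa was high in library 39 (6.90 CPM against 3.45 to 4.20 CPM).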

How the results depend on the processing

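The count of 45 genes for CagriSema against vehicle was 283 with DESeq2, 216 with voom and sample weights, 6 without filterByExpr, 4 with the 2 groups alone, 18 without vehicle libraries 4 and 6, and 3 to 130 with 1 library left out. DESeq2 called all 45 and voom 43, and 10 passed with both and without vehicle libraries 4 and 6. By library left out, counts were 6, 56, 5, 72, 25, 5, 130 and 3 for vehicle 1 to 8, and 6, 4, 8, 5, 10, 22 and 5 for CagriSema 33, 34, 35, 36, 38, 39 and 40. Leaving out weight-matched libraries 25 to 32 in turn gave 42, 31, 4, 23, 23, 17, 17 and 4. The count of 68 for CagriSema against weight matching was 210 with DESeq2, 617 with voom, 603 with the 2 groups alone, 590 without vehicle libraries 4 and 6, 27 to 68 with 1 library of those 2 groups left out, and 56 to 335 with 1 vehicle library left out, the highest without library 4. The cause was not tested.

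Some fold changes near 0 turned sign, none of them called. G6pc stood at 0.067 with voom and 0.035 without vehicle libraries 4 and 6. Ramp1 stood at 0.087 and 0.058 there, and from -0.14 to 0.13 with 1 library left out. Ramp2 stood at 0.28 and 0.21, and from -0.15 to 0.22. Hamp, main value 0.07, stood at 0.63 with voom and 0.70 without vehicle libraries 4 and 6, and ran from -0.046 to 0.45 with 1 library left out. No paired analysis was possible because the compared liver groups share no replicate number.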

Other observations

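Other circulating factors and regulators gave no call for CagriSema against vehicle. Fgf21, a hormone of fasting and protein shortage, stood at 1.15 to 6.32 CPM with vehicle and at 1.82 to 4.28 CPM with CagriSema (0.20 ± 0.30, adjusted p = 0.743; 0.78 without vehicle libraries 4 and 6, adjusted p = 0.107). Hamp, the gene of the iron hormone hepcidin, stood at 71.5 to 474 CPM and 129.5 to 284 CPM (0.07 ± 0.31, adjusted p = 0.917; 0.70 without those libraries, adjusted p = 0.181). None of 23 iron and heme genes passed. Steap4, a metalloreductase gene, stood at 27.2 to 51.2 CPM with vehicle and 49.1 to 69.3 CPM with CagriSema, near the threshold (0.55 ± 0.13, adjusted p = 0.0671). Edem1, which helps to clear misfolded proteins, stood at 0.78 (adjusted p = 0.0708), while Xbp1, a regulator of the same stress response, stood at -0.72 (adjusted p = 0.139). The 20 chaperone genes of the endoplasmic reticulum had a median of 0.06. None of 17 cell cycle genes passed (median -0.41, with 15 negative), nor did any of 18 core clock genes (median 0.12) or 35 xenobiotic and sex-biased enzymes (median 0.14).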
